A study of Drosophila melanogaster with 4 samples.

Results

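Transcripts of the sperm leucyl aminopeptidases of *D. melanogaster*, a family that holds *loopin-1* and the genes named *S-Lap* with a number, were measured by microarray in testes that lack the gene *nsr* and in WT testes. Members were chosen by name, as every gene of the family whose probe set on the array is given to it alone. Of the 8 genes with these names in the current gene table, *S-Lap2*, *S-Lap5*, *S-Lap7* and *S-Lap8* had such a probe set, 1 each, so that 4 of the 18769 probe sets tested, or 4 of 11982 genes, report the family. *loopin-1* (also *S-Lap6* in the gene table), *S-Lap1*, *S-Lap3* and *S-Lap4* were not analysed here.

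Leucyl aminopeptidases of the M17 family are metal-dependent enzymes that release single amino acids from the N-terminus of peptides. In *Drosophila* a set of testis-expressed copies of this family, the S-Laps, encodes some of the most abundant proteins of mature sperm. Several of the copies have lost residues needed for catalysis, and S-Lap proteins have been found in the paracrystalline material of the mitochondrial derivative, the elongated mitochondrion that runs along the sperm tail. The individual role of each of the 4 copies measured here is not described in the sources used, so they are treated below as paralogs of one family.

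The comparison was between testes of flies homozygous for a targeted deletion of *nsr* (*CG3875*), a young duplicate of the splicing factor gene *kep1*, and testes of WT flies. The WT line kept the intact allele through the same ends-in targeting and served to match the genetic background. The labels name no other allele or agent. All flies were males aged 0 to 2 days, and the seminal vesicles had been taken off the testes. Each genotype was hybridized to 2 GeneChip *Drosophila* Genome 2.0 arrays, called here *nsr* mutant 1 and 2 and WT 1 and 2. Each transcript is read by a probe set, a group of short oligonucleotides whose brightness is given as an intensity in arbitrary units. The labels describe 2 separate RNA extractions per genotype but do not say whether these came from separate groups of flies, and p-values therefore cover no more than the spread between these 4 samples, part of which may be technical.

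The *nsr* probe set read 23.2 and 27.6 on the mutant arrays, against 549 and 554 on the WT arrays (log2 fold change -3.78, adjusted p = 0.00837 from limma), as the labels have it. It was the only probe set called, and this call was lost without any 1 array (adjusted p = 0.0945 to 0.981 from limma) and with a pseudocount of 1 (0.346). The median intensity was 12.1 and 14.1 on *nsr* mutant 1 and 2, and 13.5 and 15.7 on WT 1 and 2. Above the negative controls on all arrays were 6 of 6 spermatocyte genes, 7 of 7 genes of spermatids and sperm, 1 of 2 of the early germline and 1 of 4 of the somatic testis. Summed intensities of the spermatid and sperm genes were 17562 to 19396 in the mutant and 18733 to 20404 in WT, and those of the spermatocyte genes were 1911 to 2406 in the mutant and 2122 to 2516 in WT. For the early germline they were 33.9 to 38.7 in the mutant and 34.7 to 40.8 in WT, and for the somatic testis 87.2 to 137 in the mutant and 128 to 134 in WT. Of tissue outside the testis, 1 of 5 accessory gland genes was above the controls on all arrays (sums of 76.0 to 114 in the mutant and 80.0 to 99.1 in WT), as were 2 of 3 ejaculatory duct and bulb genes, whose sums were lower in the mutant without overlap (708 to 808 in the mutant and 872 to 955 in WT). The sums of the 5 fat body genes, 463 to 491 in the mutant and 343 to 458 in WT, and of the 4 muscle genes, 166 to 174 in the mutant and 112 to 125 in WT, were higher in the mutant without overlap. Taken singly, 2 of the 3 duct and bulb genes, 4 of the 5 fat body genes and 2 of the 4 muscle genes overlapped between the genotypes. So did 3 of 6 spermatocyte, 5 of 7 spermatid and sperm, 1 of 2 early germline, 3 of 4 somatic testis and 3 of 5 accessory gland genes. The share over all probe sets was 64.9%. Of the 4 muscle genes, whose log2 fold changes ran from -0.05 to 0.80, 2 had an unadjusted p under 0.05 in limma, as had 1338 of 18769 probe sets. The part of these markers in the values below was not tested.

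All 4 *S-Lap* transcripts were detected far above background in both genotypes, and none of them differed between the genotypes beyond the spread of the arrays. Across the arrays, the brightest of 49 negative controls reached 5.70 to 8.57, and no *S-Lap* reading was under 679. The mean intensity in the mutant differed from WT by -11.1% in *S-Lap8*, -9.44% in *S-Lap7* and 5.26% in *S-Lap2*. For *S-Lap5* the difference was -5.64% as deposited, a sign that loess, quantile normalization and centring on the detected probe sets turned round. For every one of the 4 genes the mutant and WT arrays overlapped, as they did for 64.9% of all probe sets and 64.2% of those above the negative controls. In whole testes, fewer cells of a type and less RNA per cell cannot be told apart.

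*S-Lap8* (probe set 1626292_at, *CG4439*) had the largest difference of the 4 in the values as deposited. Its intensity was 2380 and 2807 on *nsr* mutant 1 and 2, against 2766 and 3067 on WT 1 and 2. The brighter mutant array thus lay between the WT arrays, and only *nsr* mutant 1 was below both of them. The mutant arrays averaged 2594 ± 302, against 2917 ± 213 for WT (SD, n = 2 each). The log2 fold change was -0.17 (standard error 0.13, 95% interval -0.50 to 0.16, adjusted p = 0.824 from limma).

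*S-Lap7* (1635139_at, *CG13340*) gave 3428 and 3903 in the mutant, against 3736 and 4359 in WT. Again the second mutant array fell between the WT arrays. The mutant mean was 3665 ± 336 and the WT mean 4048 ± 440 (SD, n = 2 each). The log2 fold change was -0.14 (standard error 0.13, 95% interval -0.48 to 0.20, adjusted p = 0.868 from limma).

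*S-Lap5* (1640959_at, *CG18369*) gave 679 and 723 in the mutant, against 709 and 777 in WT. It had the same order of arrays as the previous genes and the smallest spread in units of intensity. The mutant averaged 701 ± 30.4, against 743 ± 47.8 for WT (SD, n = 2 each). This is a log2 fold change of -0.08 (standard error 0.10, 95% interval -0.35 to 0.19, adjusted p = 0.912 from limma).

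*S-Lap2* (1628872_at, *CG32351*) was the member with the higher mean in the mutant. It gave 2568 and 2867 on the mutant arrays, against 2423 and 2741 on the WT arrays. Here the first mutant array lay between the WT arrays and the second above both. The mutant averaged 2718 ± 212, against 2582 ± 225 for WT (SD, n = 2 each). This is a log2 fold change of 0.07 (standard error 0.12, 95% interval -0.23 to 0.38, adjusted p = 0.939 from limma). It turned to -0.014 without WT 1 and to -0.0050 without *nsr* mutant 2, so that its sign depends on single arrays. With array medians centred the log2 fold change was 0.15, and with centring on the detected probe sets 0.17. It was 0.17 with loess and 0.16 with quantile normalization. Under each of these scalings it was larger in size than that of any other member, and its 95% interval crossed 0.

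**Figure D1:**
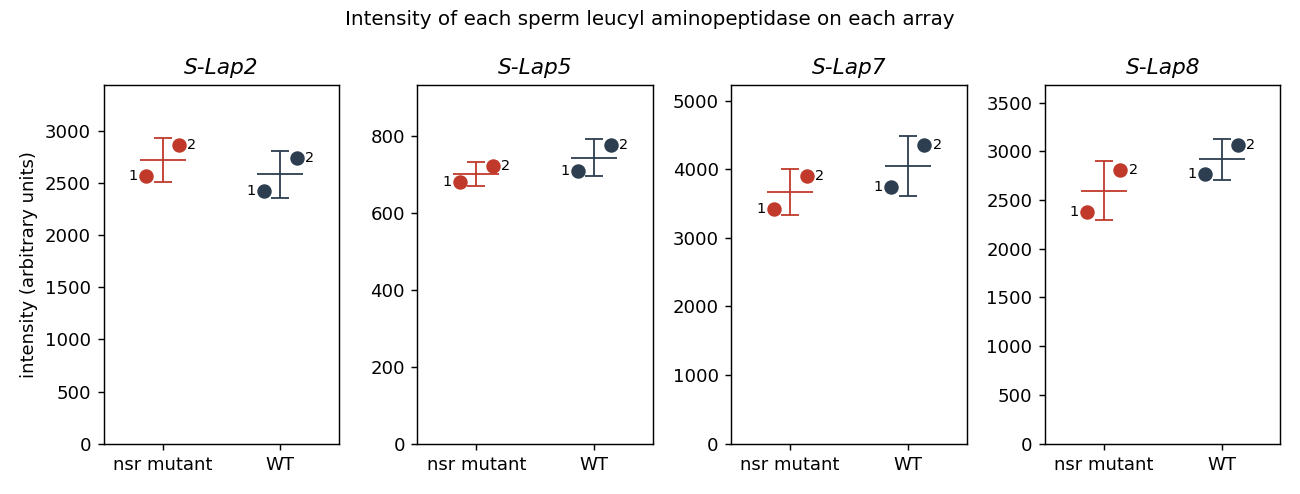
Intensity in arbitrary units of *S-Lap2*, *S-Lap5*, *S-Lap7* and *S-Lap8* on each array, *nsr* mutant on the left and WT on the right of each panel. Points are arrays with their replicate number, horizontal lines the mean and bars the SD (n = 2), and the mutant and WT points overlap in all 4 panels.

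No member passed an adjusted p of 0.05, or an unadjusted p of 0.05, in limma. Over all 18769 probe sets 0.00533% passed the adjusted threshold, which is the *nsr* probe set alone. The count of 0 among 4 is thus no different from the background, and a p that misses the threshold does not show that the levels were equal. As ratios of mutant to WT, the 95% intervals ran from 0.71 to 1.12 for *S-Lap8*, 0.72 to 1.14 for *S-Lap7*, 0.79 to 1.14 for *S-Lap5* and 0.85 to 1.30 for *S-Lap2*. A 2-fold change in either direction lay outside each of them.

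**Figure D2:**
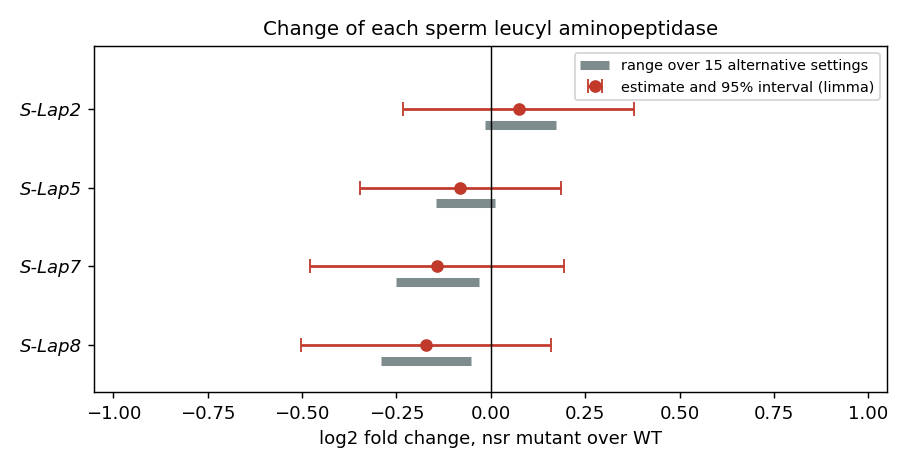
Log2 fold change of each *S-Lap* gene, *nsr* mutant over WT. Red points and bars are the estimate and its 95% interval from limma, grey bars the range of the estimate over 15 alternative settings, and all 4 intervals, the widest being that of *S-Lap7* from -0.48 to 0.20, cross 0.

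Against the rest of the array the 4 genes sat in the body of the distribution. Their median log2 fold change was -0.11, beside -0.04 for all probe sets and -0.08 for the 10038 probe sets above the negative controls on all 4 arrays. Among those 10038, the middle 50% of log2 fold changes lay between -0.21 and 0.03. *S-Lap5*, *S-Lap7* and *S-Lap8* were inside that range, higher than 49.7%, 36.7% and 30.9% of the probe sets. *S-Lap2* was outside it on the upper side, higher than 82.2%.

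**Figure D3:**
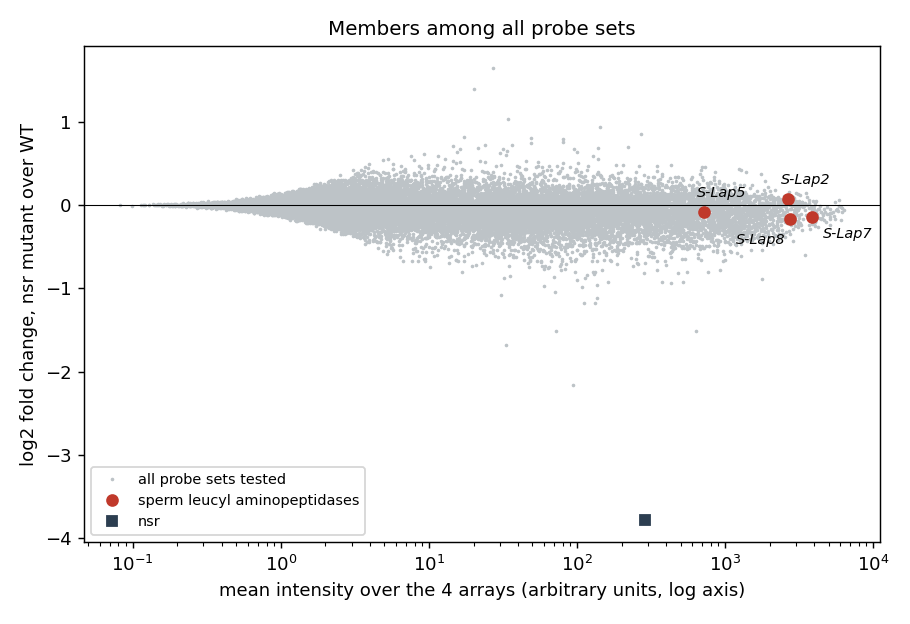
Log2 fold change (*nsr* mutant over WT) against mean intensity over the 4 arrays, on a log axis, for all 18769 probe sets (grey), the 4 *S-Lap* genes (red) and *nsr* (dark square). The *S-Lap* genes lie near 0 at the bright end, while *nsr* lies at -3.78.

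Each of the 4 genes was brighter on the second array than on the first within both genotypes, by ratios of 1.06 to 1.18 in the mutant and 1.10 to 1.17 in WT. The same held for 66.4% of the probe sets above the negative controls, whose median ratio was 1.13 in the mutant and 1.15 in WT. *S-Lap5*, *S-Lap7* and *S-Lap8* also shared one full order of the arrays, rising from *nsr* mutant 1 through WT 1 and *nsr* mutant 2 to WT 2. This is the order of the array medians, and 18.4% of the probe sets above the controls had it. The part of array brightness in these orders was not tested.

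Genes with the most similar profile over the 4 arrays were sought among 8832 probe sets with a single gene above the negative controls, by the Euclidean distance of centred log2 values from the mean of the 4 *S-Lap* genes. The closest were *Snmp2*, which encodes a CD36-type membrane protein, *AMPdeam*, an AMP deaminase, *CG12589*, the E2F transcription factor gene *E2f2*, and *CG5290*, at distances of 0.012 to 0.016. The median distance of all was 0.219. *Snmp2* read only 16.6 to 22.3 and *CG5290* 21.5 to 28.3, while the other closest genes read 155 to 248 and the members 679 to 4359. The second array exceeded the first by ratios of 1.24 (mutant) and 1.23 (WT) for *Snmp2*, and 1.23 and 1.18 for *CG5290*. A pseudocount added before the log understates the folds of such dim genes, and its part in their closeness was not tested. *S-Lap5* itself was at a distance of 0.064, *S-Lap7* at 0.073, *S-Lap8* at 0.105 and *S-Lap2* at 0.154. The last was further from the family mean than 25.9% of the other probe sets. Each member is part of that mean, which shortens its own distance, so members and other probe sets are not compared like for like. All these profiles share the same 4 arrays and their brightness.

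A log2 difference between 2 probe sets within an array leaves out any factor common to that array. Comparing the 6 pairs of members in this way, which was chosen after their values were seen, *S-Lap2* stood higher relative to each of the other 3 genes on each mutant array than on either WT array. The pairs depend on each other, since each gene enters several of them and those with *S-Lap2* share its values. They are therefore not separate comparisons that agree. A probe set does not give the amount of a transcript relative to another, so only the change of each difference between the genotypes is read.

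For *S-Lap2* against *S-Lap8*, the log2 difference was 0.11 in *nsr* mutant 1 and 0.03 in *nsr* mutant 2, against -0.19 in WT 1 and -0.16 in WT 2. The genotypes did not overlap, and the mean difference was higher by 0.25 in the mutant, a factor of 1.19. For *S-Lap2* against *S-Lap7* it was -0.41 and -0.44 in the mutant and -0.62 and -0.67 in WT, higher by 0.22. For *S-Lap2* against *S-Lap5* it was 1.89 and 1.97 in the mutant and 1.75 and 1.80 in WT, higher by 0.16.

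Among the other 3 genes the changes were smaller. *S-Lap5* against *S-Lap8* was higher by 0.09 in the mutant, with values of -1.78 and -1.93 in the mutant, against -1.94 and -1.96 in WT, so that the nearest mutant and WT arrays were almost level. *S-Lap5* against *S-Lap7* and *S-Lap7* against *S-Lap8* overlapped between the genotypes and changed by 0.06 and 0.03. With 2 arrays per genotype an exact two-sided permutation test cannot give a p below 0.333, and the 4 pairs without overlap gave that value, or 0.500 after Benjamini-Hochberg adjustment over the 6 pairs. None of the pairs could therefore pass. The separation of *S-Lap2* was also common on the array. Set against 10034 other probe sets above the negative controls in the same way, it was higher on both mutant arrays for 52.8% and lower on both for 5.4%. For *S-Lap8* these shares were 12.2% and 37.7%, for *S-Lap7* 15.6% and 32.6%, and for *S-Lap5* 22.2% and 22.8%. The other probe sets include dim ones, and the part of array brightness in these shares was not tested.

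**Figure D4:**
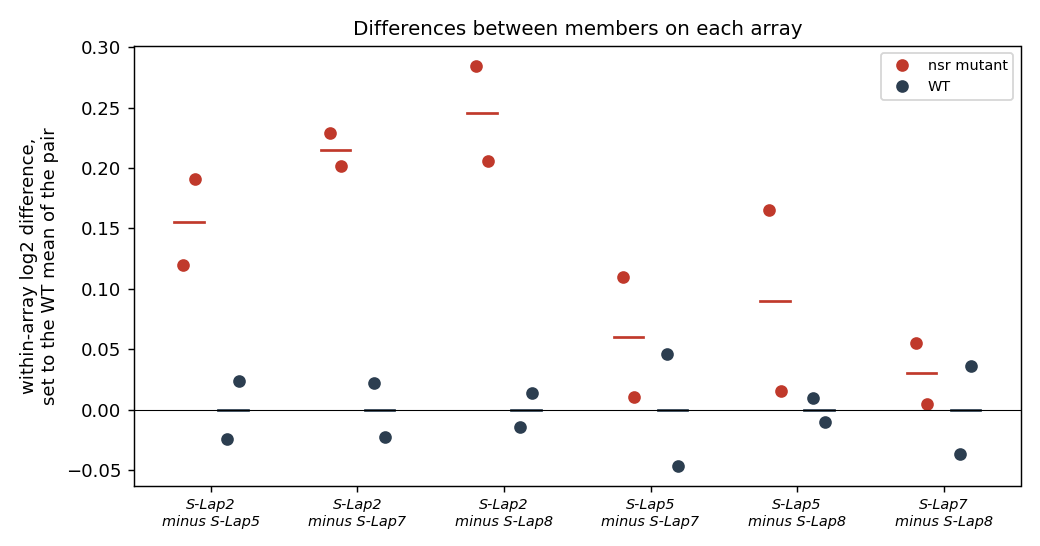
Difference of log2(intensity + 16) between 2 *S-Lap* genes within each array, for the 6 pairs, with the WT mean of each pair set to 0. Points are arrays, *nsr* mutant in red to the left of WT in dark blue, short lines the means of 2, and in the 3 pairs with *S-Lap2*, which changed by 0.16 to 0.25, the mutant points lie above the WT points.

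The genes measured all lie apart from one another in the genome, and the part of position in the values was not tested. In the gene table of release 6, *S-Lap2* is on chromosome arm 3L, next to *S-Lap1*, while *S-Lap5*, *S-Lap7* and *S-Lap8* are on 2R at separate places, none of them next to another member. Of the 8 flanking protein-coding genes, 7 had a probe set and none was called, beside 0.00533% of all probe sets. *GAPsec*, *CG43058* and *knon* read brighter than every negative control on each array. *fand* did so on 3 arrays and *Cpr50Ca* on 1, while *Cpr50Cb* and *CG33459* did so on none. The lack of calls therefore does not show that the flanking genes were unchanged. *knon*, a testis paralog of an ATP synthase subunit gene needed to shape the mitochondrial derivative, lies next to *S-Lap8* and is one of the genes listed below. It had 268 and 367 in the mutant, against 321 and 369 in WT, and the genotypes overlapped. All 4 member probe sets have names ending in _at without a further letter, the form that the array maker gives to probe sets not marked as shared among transcripts. The probe sequences were not used here, so cross-hybridization between paralogs, including those not analysed, was not tested.

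The family was read beside 3 lists of other genes. The first holds the other listed M17 genes, *grsm*, a leucyl aminopeptidase, and *Dip-B*, dipeptidase B. *grsm* had 1051 and 1122 in the mutant, against 1221 and 1374 in WT. *Dip-B* had 730 and 711 in the mutant, against 830 and 930 in WT. For each of these genes the mutant arrays lay below the WT arrays without overlap, as in 24.9% of all probe sets. Their log2 fold changes were -0.25 and -0.28 (standard errors 0.11 and 0.10, adjusted p = 0.718 and 0.690 from limma), and neither passed the test. Their median was -0.27 as deposited and -0.19 to -0.16 under 4 other scalings of the arrays. Whether they differ from the *S-Lap* genes was not tested.

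Of 16 aminopeptidases of other families with a probe set, none passed in either direction, the median log2 fold change was -0.03 as deposited and 0.02 to 0.06 under 4 other scalings, and 8 exceeded the negative controls on every array. *und*, methionine aminopeptidase 2, had 1073 and 1229 in the mutant, against 1297 and 1530 in WT, with a log2 fold change of -0.29 (adjusted p = 0.728 from limma). *CG31233* had 13.7 and 11.3 in the mutant, against 3.52 and 8.56 in WT, where WT 1 was not above its negative controls (log2 fold change 0.38, adjusted p = 0.699 from limma). *CG8773* was not above the negative controls on any array. The mutant arrays lay wholly above WT in 3 of the 16, beside 10.2% of all probe sets, and wholly below in 3, beside 24.9%.

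The last list was drawn up for the nebenkern and the mitochondrial derivative, the latter being where S-Lap proteins are found. Not every gene on it is particular to these structures, and *don juan* (*dj*) was also counted among the spermatid and sperm genes above. The 10 genes analysed were all above the negative controls on every array and none passed in either direction. Their median log2 fold change was -0.12. As deposited all 10 values of the list were below 0, and under each of 4 other scalings of the arrays 7 of the 10 were, with medians of -0.05 to -0.03. *Pink1*, a kinase of mitochondrial quality control, had 146 and 170 in the mutant, against 191 and 227 in WT, with a log2 fold change of -0.37 (adjusted p = 0.690 from limma). *djl*, a paralog of the sperm tail gene *don juan*, had 778 and 1141 in the mutant, against 1171 and 1352 in WT, with a log2 fold change of -0.41 (adjusted p = 0.745 from limma). *Drp1*, the GTPase of mitochondrial fission, had 428 and 461 in the mutant, against 480 and 528 in WT, with a log2 fold change of -0.17 (adjusted p = 0.777 from limma). In these 3 of the 10 the mutant arrays lay wholly below WT, beside 24.9% of all probe sets, and in the other 7 the genotypes overlapped, beside 64.9% of all, so that both counts are near the background.

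**Figure D5:**
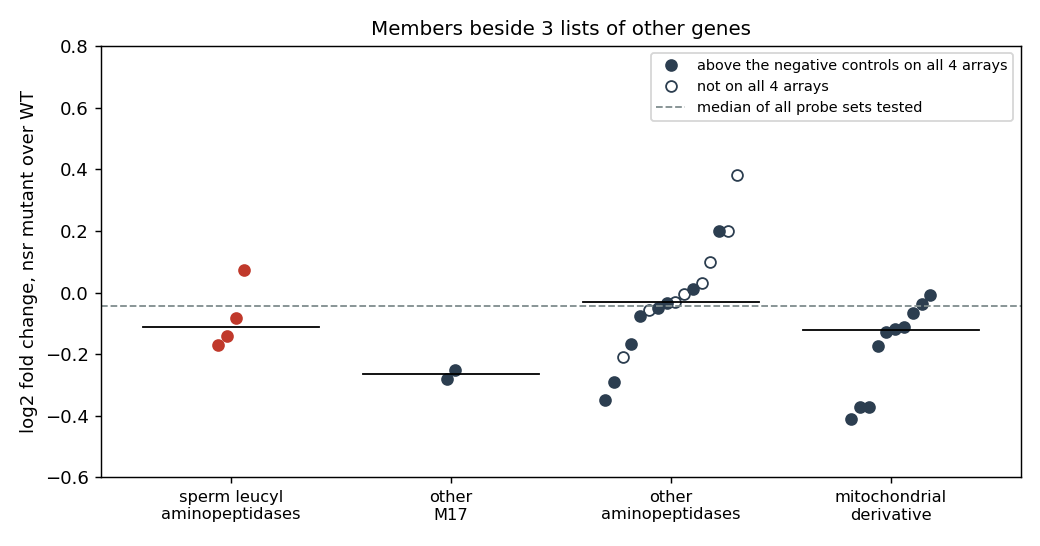
Log2 fold change (*nsr* mutant over WT) of each gene in the *S-Lap* family (red) and in 3 lists of other genes (dark blue, open where not above the negative controls on all 4 arrays). Lines are list medians, from -0.27 for the other M17 genes to -0.03 for the other aminopeptidases, and the dashed line is the median of all probe sets, -0.04.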

How the data were processed

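Total RNA of testes was labelled and hybridized by the authors to 1-colour Affymetrix arrays. Per probe set and array, the authors deposited 1 intensity on a linear scale, used here unchanged. No source used here states how probes were summarised, corrected for background or scaled. From 18952 probe sets, 183 Affymetrix controls were left out, and 49 of these named by protein accessions served as negative controls. Probe sets were named through the array annotation, updated with the release 6 gene table.

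The test was limma 3.58.1 (lmFit, eBayes; R 4.3.3), fitted to log2(intensity + 16) of the 4 arrays, two-sided, with Benjamini-Hochberg adjustment over 18769 probe sets, on which scale folds of low genes are understated. The methods of the study name SAM, which was not used. A gene with several probe sets is represented by the one with the highest mean. The number of arrays limits the precision. The limma step was tested on simulated data. Python 3.11.15, numpy 2.4.6, pandas 2.3.3, scipy 1.17.1 and matplotlib 3.10.9 made the tables and figures.

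The members, lists and tests were chosen with earlier results of these data known. Named were all members, all other M17 genes, the 3 genes with the smallest unadjusted p of each other list, and the 5 most alike in pattern. The flanking genes, *knon* among them, and the pairs were chosen after values were seen. The name *sda* could not be matched to 1 gene and was dropped, *CG11956* and *SP1029* are 1 gene, and *park* and *rho-7* were not analysed. Of the marker names, *nos* and *Peb* could not be matched to 1 gene, and *Fas3*, *Mhc* and *wupA* were not analysed. Alternatives were other pseudocounts, normalizations, filters on level, an intensity trend in the prior, a replicate block, the omission of each array in turn and averaging probe sets of a gene.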

Additional observations from a re-analysis of the deposited data

How the results depend on the processing

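No *S-Lap* gene and no gene of the 3 lists passed an adjusted p of 0.05 in limma in any of the 15 alternatives, and no *S-Lap* gene had an unadjusted p under 0.05 in any of them. One alternative, arrays centred on the probe sets above the negative controls, was chosen after seeing the data. Over the alternatives the 95% intervals of the 4 genes stayed between -0.79 and 0.67 on the log2 scale. *S-Lap7* and *S-Lap8* kept values below 0 in all 15, at -0.25 to -0.03 and -0.29 to -0.05, and both ends of each range came from leaving out 1 array. Under the 4 other scalings they lay at -0.07 to -0.03 and -0.10 to -0.07. The values of *S-Lap5* turned to 0.012 with arrays centred on the probe sets above the negative controls, 0.0058 with loess and 0.010 with quantile normalization. *S-Lap2* turned to -0.014 without WT 1 and -0.0050 without *nsr* mutant 2, within a range of -0.014 to 0.16 when 1 array was left out. Under the 4 other scalings *S-Lap2* lay at 0.15 to 0.17, the largest in size of the 4 genes under each. The family median ranged from -0.20 to -0.02 when 1 array was left out and was -0.01 with quantile normalization. The *nsr* log2 fold change lay between -3.85 and -3.70 without 1 array and was -4.39 with a pseudocount of 1, and it was called in none of these fits. As reported, 1 probe set was called, against 0 with a pseudocount of 1 or without any 1 array (unadjusted p under 0.05 in 1338 as reported and 1166 with a pseudocount of 1). The count was 2 with loess (0 higher and 2 lower), 3 with quantile normalization (1 higher and 2 lower), 75 (31 higher and 44 lower) with arrays centred on the probe sets above the controls, 111 (37 higher and 74 lower) with array medians centred, and 122 (23 higher and 99 lower) and 136 (23 higher and 113 lower) when probe sets under the median or under the 25th percentile were dropped. The prior degrees of freedom of limma, the weight it gives to a spread shared by all probe sets, also differed. They were 2.789 as reported, 2.831 with loess and 2.728 with quantile normalization. With arrays centred on the probe sets above the controls they were 24.82, and with array medians centred 24.42. With either filter on level they were infinite. The part of this weight in the counts was not tested, nor was any other cause. With the replicate number as a block 2 probe sets were called, and no *S-Lap* gene. Deviations of same-numbered arrays correlated at 0.15 over all probe sets, and the labels do not pair the arrays.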
